A study of Mus musculus with 2 samples.

Results

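The 10 genes described here encode the proteins that load peptides onto MHC class II molecules and carry them to the cell surface, and the factor that switches these genes on. They are H2-Aa, H2-Ab1, H2-Eb1, H2-DMa, H2-DMb1, H2-DMb2, H2-Oa, H2-Ob, Cd74 and Ciita, taken by gene name from the array annotation. They are 10 of the 34647 gene names on the array, with 14 of its 55681 non-control probes. Each was read in mouse bone marrow-derived macrophages, grown from marrow for 5 days in M-CSF (supplied as CMG14-12 culture medium) and then given 100 ng/ml lipopolysaccharide (LPS) for 5 h. Every group had that same treatment, and an untreated group was not analysed here. The groups were c-Maf+/- macrophages, which keep 1 copy of the gene for the transcription factor c-Maf, and c-Maf-/- macrophages, with 1 one-colour array each. The labels used here name no strain, sex or age of the mice, no design of the c-Maf allele, and no number of mice or cultures behind an array. With no replicate in either group, nothing here could be tested across samples, and a difference means c-Maf-/- minus c-Maf+/- for this 1 pair of arrays.

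MHC class II molecules are heterodimers of an alpha and a beta chain that show peptides from endocytosed proteins to CD4+ T cells. In the endoplasmic reticulum the new dimer binds the invariant chain, encoded by Cd74, which blocks the groove and routes the complex to endosomes. There H2-DM exchanges the remaining invariant chain fragment for antigenic peptides, and H2-O, best known from B cells, restrains H2-DM. Most of these genes depend on CIITA, in whole or in part. CIITA is a coactivator that binds no DNA itself but docks on RFX, NF-Y and CREB proteins at the X and Y boxes of promoters. In macrophages Ciita and class II expression are low at rest and are induced chiefly by interferon gamma.

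Promoter sequence from RefSeq (build GRCm38.p6) was held for 7 of the 10 members, and Cd74, Ciita and H2-Ab1 had no entry. The windows below show the X and Y boxes where CIITA's partners bind, since this is the element that defines the family. Each is a stretch of 55 bases, 5′ to 3′ on the gene's strand, around the Y box sequence ATTGG found between 100 and 40 bases before the start site. Capitals mark that Y box and, where present upstream of it, the X box core AGNAAC. H2-DMa had no such Y box in its windows and is not shown.
H2-Aa: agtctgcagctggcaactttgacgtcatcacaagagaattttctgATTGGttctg
H2-Eb1: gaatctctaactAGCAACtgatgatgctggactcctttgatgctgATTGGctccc
H2-DMb1: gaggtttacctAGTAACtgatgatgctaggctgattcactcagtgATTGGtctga
H2-DMb2: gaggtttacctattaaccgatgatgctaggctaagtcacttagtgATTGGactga
H2-Oa: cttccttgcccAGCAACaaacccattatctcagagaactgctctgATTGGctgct
H2-Ob: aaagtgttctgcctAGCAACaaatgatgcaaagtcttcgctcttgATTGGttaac

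All 6 windows lie on chromosome 17, at chr17:34287862-34287916 (minus strand) for H2-Aa and, on the plus strand, chr17:34305763-34305817 for H2-Eb1, chr17:34153085-34153139 for H2-DMb1, chr17:34145114-34145168 for H2-DMb2, chr17:34092291-34092345 for H2-Oa and chr17:34238803-34238857 for H2-Ob. The Y box began 43 to 90 bases before the start, and the core, in the 4 windows that hold it, began 31 to 34 bases before the Y box. The longer X box, in which the core is followed by any base and then GATG, was present in 2 windows, those of H2-Eb1 and H2-DMb1. Promoters for the shares given here ran from 250 bases before the start to 50 after it, longer than the windows. Of 32851 such mouse promoters 0.298% hold the longer X box on either strand, against 2 of 8 member promoters. The Y box alone was common, at 37.4% of promoters on either strand, as was the core alone, at 48.1%. A core followed on the same strand by a gap of 15 to 35 bases and then ATTGG was found in 4 of 8 member promoters (H2-DMa has 2) and in 0.566% of all promoters, a spacing chosen after the sequences were seen. H2-DMb1 and H2-DMb2, neighbouring genes for the beta chain of H2-DM, were 89.1% identical over these windows. Counted from 1 at the 5′ end, with H2-DMb1 as the reference, the 6 differences are G13T, T18C, G33A, T35G, C41T and T51A, of which G13T lies within the core at positions 12 to 17. A match or a missing match describes these letters only.

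The arrays read as macrophages with and without c-Maf RNA. On the brighter Maf probe the c-Maf+/- array read 15101, and the c-Maf-/- array read 12.6, not well above background, which makes it at least 636-fold lower. Macrophage markers were measured on both arrays for 12 of 12 genes, among them the M-CSF receptor gene Csf1r with mean signals of 36734 and 37597 over 3 probes. The 1 such marker past 2-fold was Mertk (-1.91), a receptor for the uptake of apoptotic cells. Of the non-control spots, 45.3% were well above background in c-Maf+/- and 44.9% in c-Maf-/-, and no spot was saturated. Signals at the 75th percentile, which scaled the arrays, were 291 and 296.

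Of the 14 class II probes, 9 were well above background on both arrays and cover 8 genes, 2 were so on the c-Maf+/- array only, and 3 on neither. Among all probes, 41.5% were well above background on both arrays. These 9 probes differed between genotypes by 1.27-fold or less, and 0 of 9 passed 2-fold or even 1.5-fold, against 2.81% and 11.1% of all 23082 probes measured on both arrays. Of all those probes, 1.35% were at least 2-fold higher in c-Maf-/- and 1.46% at least 2-fold lower. By gene, 0 of 8 passed 2-fold, against 2.87% of the 17169 gene names measured on both arrays, and 0 passed 1.5-fold, against 10.8%. The median log2 difference was 0.12 over the 9 probes and 0.06 over the 8 genes, beside -0.02 over all measured probes and genes. Of the 9 probes, 4 had a value below 0, against 54.6% of all probes. The list thus had no common direction, with H2-Ab1, H2-DMa, H2-Ob and Ciita above 0 and H2-Aa, H2-Eb1, H2-DMb1 and Cd74 below it.

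**Figure D1:**
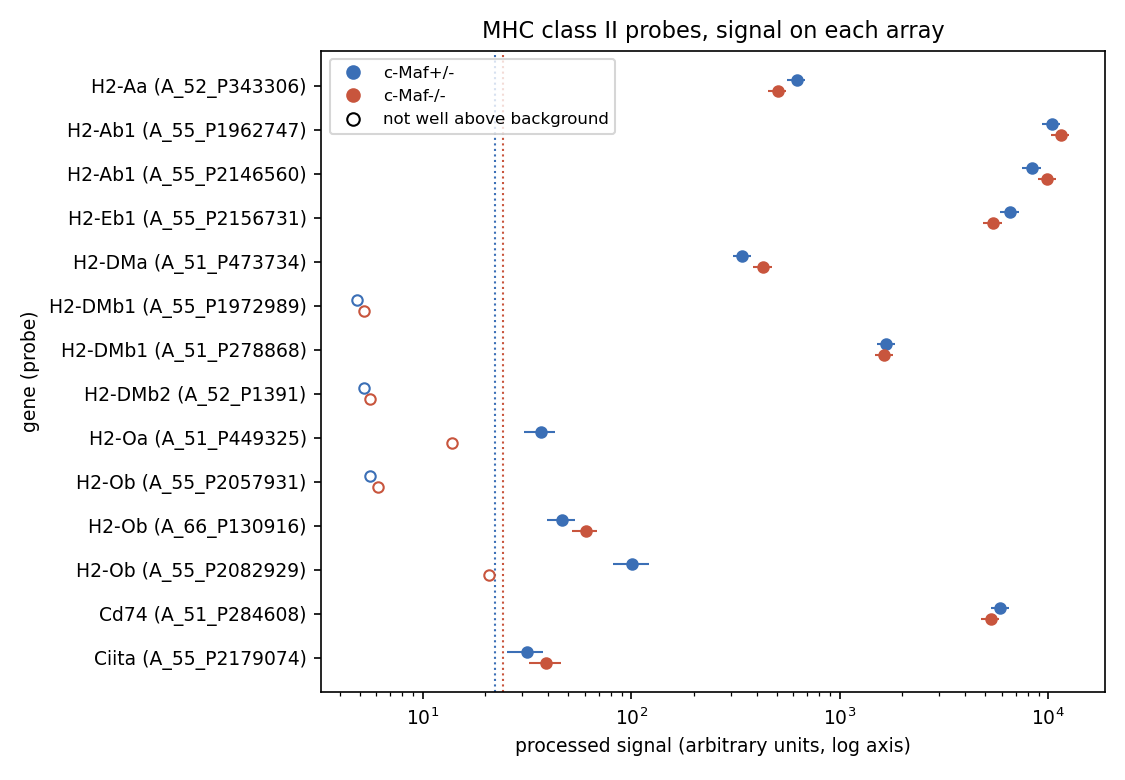
Processed signal (arbitrary units, log axis) of each of the 14 MHC class II probes on the c-Maf+/- array (blue) and the c-Maf-/- array (red), with bars for the scanner software's error of 1 spot on signals well above background. Open circles were not well above background, and dotted lines mark the lowest signal well above background on each array (22.3 and 24.2). Filled circle pairs lie close together for the 9 probes measured on both arrays, and H2-Oa and 1 H2-Ob probe are filled on the c-Maf+/- array only.

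Precision rests on 1 spot per member probe, so 2 measures of error from elsewhere on the arrays are given. The scanner software attaches an error to each processed signal, which its header sets at 10% for bright spots, and that makes the error of a log2 difference 0.20 for the member probes at the median. None of the 9 probes differed by more than 1.96 such errors, whereas 18.0% of the 22834 probes measured in 1 spot did. Repeat spots of 1 probe had a median SD of 0.07, below that error, and a 95th percentile of 0.31, above it, over the 222 probes with at least 8 spots. Both measures cover the array alone and leave out the spread between cultures or mice. A signal belongs to its own probe, so brightness is compared between arrays and not between genes.

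The chains of the surface molecules went different ways by small amounts. H2-Aa, the alpha chain of the I-A molecule, read 623 in c-Maf+/- against 504 in c-Maf-/- (probe at chromosome 17, 34421285 to 34421344, build mm9). The c-Maf-/- array was 1.26-fold lower, a log2 difference of -0.33 ± 0.21 (software error), the farthest below 0 of the 9 probes. H2-Ab1, the beta chain of the same I-A dimer, was slightly higher in c-Maf-/- on both of its probes. Its probe at 34406296 to 34406355 went from 10402 to 11471 (0.12 ± 0.20). Its other probe, at 34406305 to 34406363, went from 8371 to 9919 (0.22 ± 0.20). These probes share 51 bases of their target, so they repeat 1 measurement and do not give an independent one. H2-Eb1, the beta chain of the I-E molecule, had signals of 6562 and 5444 (34453075 to 34453134), 1.23-fold lower in c-Maf-/- at -0.30 ± 0.20.

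H2-Ab1 and H2-Aa can also be compared within each array, which is free of any scaling constant between the arrays. The log2 difference of H2-Ab1 exceeded that of H2-Aa by 0.50, which is 1.73 times the software error of 0.29. Spike-in and median scaling cannot change this gap, since they only shift a whole array. It was 0.46 to 0.54 under normexp background correction, no background subtraction, and quantile and loess normalization. H2-Ab1 exceeded H2-Eb1 by 0.46 (0.43 to 0.47 over the same settings), while H2-Eb1 and H2-Aa lay within 0.04 of each other (0.04 to 0.08). The beta chain of I-A thus stood a little apart from its own alpha chain, at less than 2 software errors, and no replicate bears on it. The partner of H2-Eb1, the E alpha chain, is annotated on the array as a pseudogene (H2-Ea-ps), which is its state in several laboratory strains. Its probe was not well above background on either array, at 5.74 and 6.15. H2-Eb2, a further beta chain gene, was dim, at 45.1 and 38.7 (-0.25).

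**Figure D2:**
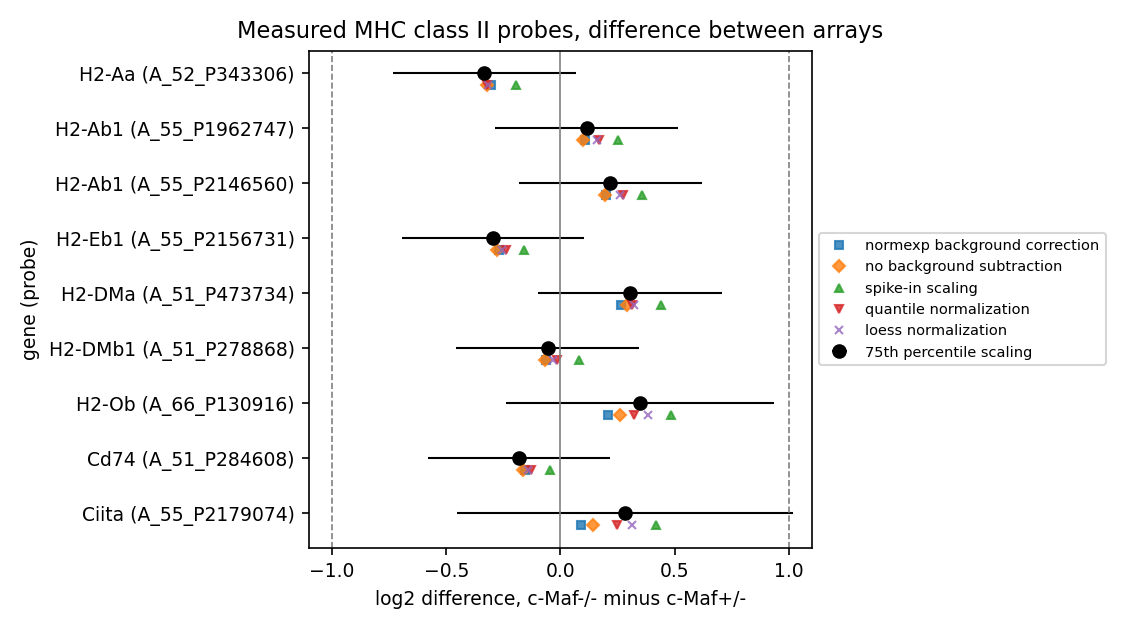
Log2 difference, c-Maf-/- minus c-Maf+/-, of the 9 MHC class II probes well above background on both arrays. Black points with bars of 1.96 software errors are the values scaled on the 75th percentile, coloured symbols are 5 alternative settings, and dashed lines mark 2-fold. Every bar spans 0, and spike-in scaling (green triangles) lies to the right of the black points by 0.14.

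The invariant chain and the peptide exchange factor differed as little. Cd74 had signals of 5906 and 5302 (chromosome 18, 60972075 to 60972132, mm9), a log2 difference of -0.18 ± 0.20, 1.13-fold lower in c-Maf-/-. H2-DMa, the alpha chain of H2-DM, went from 342 to 430 (0.31 ± 0.21, 1.24-fold higher). Its 60-base probe is placed at 34274300 to 34274863 of chromosome 17, a span of 564 bases, so its target is split over that stretch. H2-DMb1, the beta chain of H2-DM, had signals of 1673 and 1639 at 34297109 to 34297168, a log2 difference of -0.06 ± 0.20, which turned to 0.08 with spike-in scaling. These members therefore sat on either side of 0, H2-DMa above H2-DMb1 by 0.36 at 1.24 times the software error of that gap.

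A further H2-DMb1 probe was not well above background on either array, at 4.84 and 5.22. Its sequence matched the start-site window of H2-DMb1 at 58 of 60 bases, from 27 bases before the RefSeq start to 33 after it. Part of its target thus lies upstream of the RefSeq start. H2-DMb2, the second beta chain gene, was not well above background on either array, with signals of 5.24 and 5.61 at 34284764 to 34284823. Its probe and the brighter H2-DMb1 probe have at most 19 of 60 bases alike in any ungapped overlap. H2-DMb2 is also the gene whose window above lacks the core AGNAAC, as does that of H2-Aa, which was measured on both arrays.

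The H2-O genes gave the only class II probes seen in 1 genotype, and their probes were dim and did not all go the same way. H2-Oa, the alpha chain of H2-O, read 36.9 in c-Maf+/- against 13.8 in c-Maf-/- (34232033 to 34232092), where it was not well above background, which makes it at least 1.55-fold lower. For such bounds the dim side is taken as 24.2, the smallest c-Maf-/- signal called well above background, after scaling. H2-Ob, the beta chain, had 3 probes. The probe at 34382790 to 34382849 went from 101 to 20.7, at least 4.27-fold lower by the same bound. The probe at 34380481 to 34380849, whose target is split over 369 bases, went the other way, from 46.6 to 60.5 (0.35 ± 0.30). The third H2-Ob probe, at 34377309 to 34377368, was at 5.58 and 6.08, not well above background on either array.

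The pixels of the H2-Ob spot with the large bound were uneven. On the c-Maf+/- array their mean was 153 and their median 102, with an SD of 140, whereas the same spot on the c-Maf-/- array had a mean of 65.9, a median of 64 and an SD of 29.0. The ratio of mean to median in that c-Maf+/- spot was above the 99th percentile of all probes, 1.20, and 2 of the 1630 probes well above background in c-Maf+/- only had a larger one. From pixel medians, without background subtraction, c-Maf+/- was 1.59-fold above c-Maf-/-, against 2.32-fold from pixel means. Its part in the result was not tested further, and no spot of a member was flagged as an outlier. Being seen on the c-Maf+/- array only applied to 2 of the 11 members' probes seen on at least 1 array, and to 6.24% of all such probes. Of the same 11 probes, 0 were seen on the c-Maf-/- array only, against 5.42% of all.

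Ciita, the master coactivator, was barely above background in both genotypes. Its 1 probe (chromosome 16, 10526568 to 10526627, mm9) had signals of 31.7 and 39.2, a log2 difference of 0.28 ± 0.38, with 22.3 and 24.2 as the lowest signals well above background. The value was 0.09 with normexp background correction and 0.42 with spike-in scaling, and its 95% interval from the software error, -0.45 to 1.02, spans 0.

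**Figure D3:**
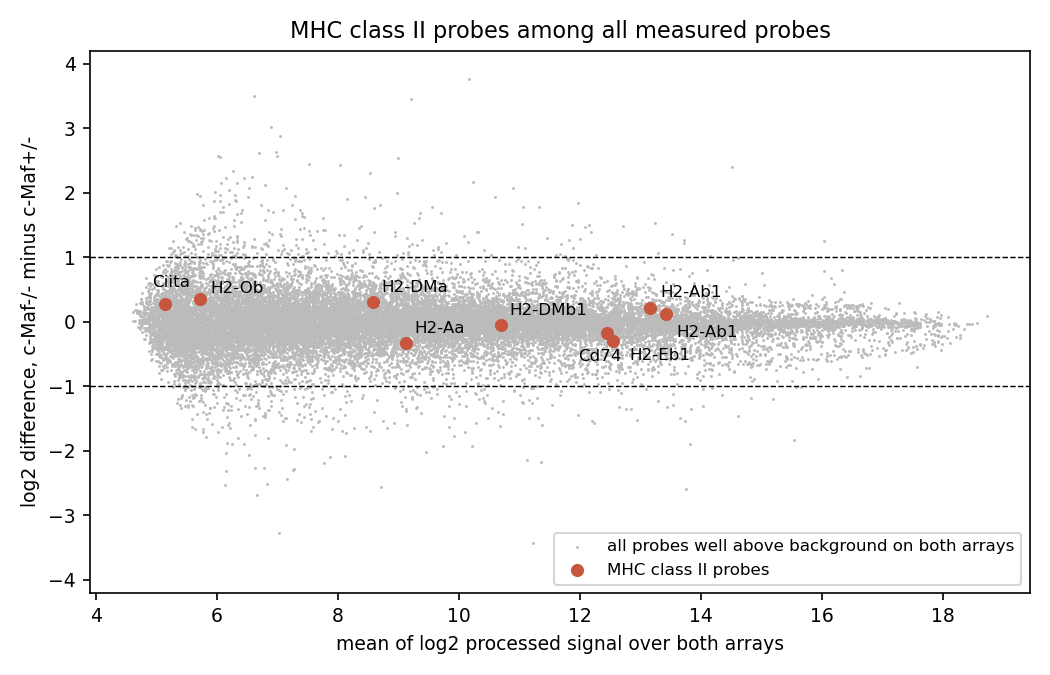
Log2 difference, c-Maf-/- minus c-Maf+/-, against the mean of log2 processed signal for the 23082 probes well above background on both arrays (grey) and the 9 MHC class II probes (red, named). Dashed lines mark 2-fold, and the class II probes lie inside them at every brightness, between -0.33 and 0.35.

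Most probes on the arrays differed as little as the class II probes did. The largest absolute difference of the 9 probes was 0.35, and 73.7% of all measured probes lay within it. H2-Aa, farthest below 0, was exceeded in size by 20.2% of the 12873 probes with a signal of at least 300 on both arrays. Dim probes spread more, with an SD of log2 differences of 0.42 for the 4871 probes under 100 on both arrays, where Ciita and the measured H2-Ob probe lie, and 0.34 for the 17197 probes at 100 or more. In bulk RNA, fewer class II-positive cells and less RNA per cell cannot be told apart.

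The DNA-binding partners of CIITA that were measured on both arrays lay within 2-fold as well. Rfxank, a subunit of RFX, was at 0.35 (306 to 398), and the NF-Y subunit genes Nfya and Nfyc were at 0.28 and 0.14, with Nfyb at -0.26. Rfx5, the DNA-binding subunit of RFX, was well above background in c-Maf+/- only, at 34.4 and 15.6 on its brighter probe, and Rfxap, the third subunit, in c-Maf-/- only, at 27.7 and 30.9. Over the 15 measured genes of that list, which also holds CREB1, coactivators and repressors of class II genes, 11 were below 0, 1 was at least 2-fold lower and none was 2-fold higher, with a median of -0.19 (-0.05 with spike-in scaling). Of all 17169 measured gene names, 1.5% were at least 2-fold lower, 1.37% at least 2-fold higher and 54.2% below 0. The gene past 2-fold was Prdm1 (-1.05), which encodes Blimp-1, a repressor of Ciita in plasma cells, and it lay within 2-fold with spike-in scaling (-0.91) and with normexp (-0.93). Bcl6, a further repressor, followed at -0.40.

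Genes that act upstream of Ciita spread from -0.99 to 0.12. This list of inducers of Ciita also holds Socs1 (-0.60), which encodes an inhibitor of interferon signalling and not an inducer. With Socs1 counted, 9 of 12 measured genes were below 0 and none passed 2-fold. The median was -0.49 and ranged from -0.49 to -0.35 over the alternatives. Irf1, an interferon-induced factor that acts on the Ciita promoter, was at -0.99 over 2 probes, the dimmer at -1.34 and the brighter at -0.65, and at -0.63 with normexp. Ifnb1, the gene for interferon beta, was at -0.95. The interferon gamma receptor genes Ifngr1 (0.02) and Ifngr2 (0.12) and the myeloid factor gene Spi1 (0.05) lay near 0. Ciita at 0.28 and the class II chain genes at -0.33 to 0.17 stand beside these values without a test of the difference, since 1 array per genotype allows none.

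Proteases and other enzymes that prepare class II peptides were bright and mostly near 0. Ctss, the cathepsin that degrades the invariant chain in most antigen-presenting cells, had signals of 154073 and 156633 (0.00). Ifi30, a thiol reductase that opens disulfide bonds of antigens, was at -0.01, and Lgmn, an asparaginyl endopeptidase, at -0.25. Ctsl, the cathepsin that degrades the invariant chain in thymic epithelium, was lower at -0.72, with signals of 138695 and 85520. Of 12 measured genes 11 were below 0, the exception being Ctsz (0.09), with a median of -0.12 that turned to 0.02 with spike-in scaling. The 1 gene at least 2-fold lower was Asprv1 (-1.33), dim at signals of 93.2 and 37.7, which lay within 2-fold with normexp (-0.65). Asprv1 is a skin protease whose part in class II presentation is not established. Of all measured gene names, 1.5% were at least 2-fold lower and 54.2% below 0.

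Genes for the traffic and turnover of surface class II had a median of -0.07 over 18 genes, and under spike-in scaling the median was 0.07. None of the 18 passed 2-fold. March1, the ubiquitin ligase that sends class II from the surface to lysosomes, was at 0.18, a mean of probes at -0.07 and 0.43. Plekhm1, a lysosome adaptor, was at 0.12, while the tetraspanin gene Cd9 was at -0.48 and the myosin gene Myo1e at -0.44. Among 9 co-stimulation genes measured on both arrays 6 were below 0 and none passed 2-fold, with a median of -0.59 that was -0.31 with normexp. Of all measured gene names, 54.2% were below 0. Tnfsf4, a further gene of that list, was well above background in c-Maf+/- only, at signals of 123 and 24.7. Cd86, a ligand of CD28, was at -0.77 (mean signals of 1806 and 1045 over 2 probes) and Pdcd1lg2, a PD-1 ligand, at -0.71 from dim signals. Icosl (0.71), the ligand of ICOS, and Cd80 (0.48), the other CD28 ligand, lay above 0.

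MHC class I genes, which present cytosolic peptides to CD8+ T cells, were the other presentation pathway on the arrays. Of 18 measured genes 16 were below 0 and none passed 2-fold, against 54.2% and 2.87% of all measured gene names. Their median was -0.17, and -0.03 with spike-in scaling. Nlrc5, the class I counterpart of Ciita, was lowest at -0.35 over 2 probes, followed by H2-M3 (-0.27), and the chaperone genes Canx (0.10) and Calr (0.03) were highest. Several of these genes sit inside the class II cluster. Between the H2-Oa and H2-Eb1 probes, 221 kb of chromosome 17 from 34232033 to 34453134 (mm9), 7 further probes were measured on both arrays. They read Psmb8, Psmb9, Tap1, Tap2 and the bromodomain gene Brd2. All 7 were below 0, against 54.6% of all measured probes, and 0 of them passed 2-fold. They lay between -0.33 and -0.09 (median -0.18), a span that spike-in scaling shifts upward by 0.14 to include 0. The members in the same stretch lay on both sides of 0.

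**Figure D4:**
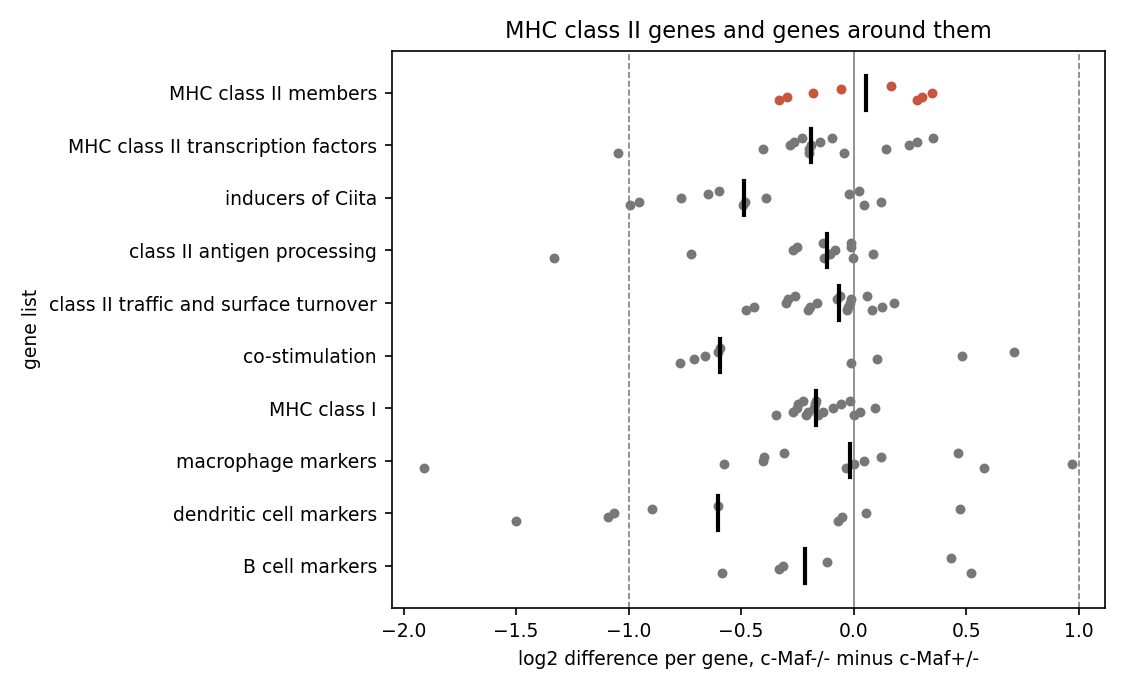
Log2 difference per gene, c-Maf-/- minus c-Maf+/-, for the MHC class II members measured on both arrays (red, 8 genes) and for genes measured on both arrays in each list around them (grey), with a black bar at each median and dashed lines at 2-fold. The class II genes sit between -0.33 and 0.35 around a median of 0.06, and the medians of the lists below range from -0.60 for dendritic cell markers to -0.02 for macrophage markers.

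Class II genes are also read from other cells that a marrow culture can hold. Of 14 dendritic cell markers on the array, 9 were measured on both arrays, with 7 below 0, and 4 were well above background on neither (Cd209a, Dpp4, Kit and Xcr1). Their median was -0.60, but -0.34 over those with a signal of at least 100 on both arrays and -0.25 without the filter on dim probes. Of all measured gene names, 54.2% were below 0 and 1.5% at least 2-fold lower. The dendritic cell markers at least 2-fold lower in c-Maf-/- were Fscn1 (-1.50), Itgax (-1.09) and Bcl11a (-1.06, from probes at -1.62 and -0.50). Of these, Itgax and Bcl11a lay within 2-fold with normexp and with spike-in scaling. The 6 others measured on both arrays were Batf3 (-0.89), Zbtb46 (-0.60), Clec10a (-0.07), Ccr7 (-0.05), Siglech (0.06) and Flt3 (0.47), and Clec9a was seen in c-Maf+/- only, at a signal of 35.9. Siglech and Flt3 each rest on 1 of 3 probes, and Flt3 was close to background, at 24.5 and 34.7 (0.10 with normexp). The summed signal of all probes of this list was 45349 in c-Maf+/- and 47132 in c-Maf-/-, of which 1 Siglech probe gave 41554 and 43949. Of 12 B cell markers, 6 were well above background on neither array, among them Ms4a1, Pax5, Ebf1, Blk and Vpreb3, and the 6 others had a median of -0.22 (-0.08 with spike-in scaling), with summed signals of 26452 and 24832, mostly from Blnk. The part of such cells in the class II signals was not tested.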

How the data were processed

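The deposited values are spot intensities of 2 one-colour (Cy3) arrays, written by Agilent Feature Extraction 10.7.3.1 (design 028005, build mm9), per the file headers. Its processed signal had its background subtracted and spatial trend removed array by array, low spots carry surrogates, and arrays were not normalized to each other. The other deposited columns used were the signal error, pixel mean, median and SD, background median, and the 0 and 1 flags and probe types.

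Here log2 of each processed signal minus the array's 75th percentile over 59305 non-control spots was taken. Outlier spots (136 and 149) were dropped, and repeat spots averaged per probe. A gene is the mean of its probes well above background on both arrays. Errors of differences combine both arrays' signal errors. The number of arrays limits precision. No p-value was computed, and calls are at 2-fold. The calculation was tested on simulated data. limma 3.58.1 in R 4.3.3 gave normexp, quantile and loess.

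The members, lists and settings were chosen with earlier results of these data known. Named genes are all members, list genes past 2-fold, up to 2 farthest from 0 each way per pathway list, and 12 genes chosen regardless of value, of which 1 is not reported here. Csf1r, Nfyb, Nfyc, Ifngr1, Socs1, Tnfsf4, the dendritic cell markers within 2-fold and markers at background are named outside that rule, after their values were seen. Without an mm9 annotation in use, probes are placed by coordinates alone.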

Additional observations from a re-analysis of the deposited data

How the results depend on the processing

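The 9 class II probes measured on both arrays stayed within 2-fold under normexp, no background subtraction, spike-in, median, quantile and loess scaling, and the 7 with a signal of at least 100 did too. Their median of 0.12 was 0.25 with spike-in scaling and -0.056 over the 7 brighter probes, which lack Ciita and H2-Ob by construction. Spike-in scaling moved every difference by 0.14 and the share of all calls on the higher side from 47.9% to 66.8% (462 higher, 230 lower). Without the filter on dim probes 2 of 14 probes were at least 2-fold lower, the H2-Oa probe and 1 H2-Ob probe, and calls over all probes rose to 2974 higher and 2778 lower from 311 and 338. With normexp they were 109 and 148, and without background subtraction 139 and 178, while 119 and 173 of the probes at 100 or more passed. The pixel summaries of the H2-Oa and H2-Ob spots, taken without background subtraction, were added after seeing the data. They gave log2 ratios of -0.49 and -0.67 from pixel medians and -0.52 and -1.22 from pixel means. The background-subtracted processed signals gave -1.41 and -2.29. For H2-Oa the medians and means thus gave nearly the same ratio, and both differ from the processed signal in background subtraction. No paired analysis was possible because each genotype had 1 array. Low signal limits Ciita, H2-Oa and H2-Ob.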
